A study of Homo sapiens with 12 samples.

Results

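The proteasome subunit genes examined here were the 41 of 63241 genes in the count table whose symbol is PSMA, PSMB, PSMC or PSMD followed by digits only, or PSME1, PSME2, PSME3 or PSME4. PSMB8 and PSMB9 were left out by that rule. By role the 41 genes fell into 8 alpha-ring and 9 beta-ring genes of the core particle, 6 ATPase and 11 non-ATPase genes of the regulatory particle, 3 assembly chaperones and 4 activators. The rule used no measured value.

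The proteasome is the main machine of the cytosol and nucleus for degrading proteins that carry ubiquitin chains. Its core particle is a barrel of stacked alpha and beta rings, with the cutting sites on beta subunits inside, and its regulatory particle recognises ubiquitin, removes it, and unfolds and feeds in the substrate through a ring of ATPases. Subunit genes are known to be induced together by the transcription factor NFE2L1 when degradation fails, and proteasome inhibitors have been tried against glioblastoma.

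RNA sequencing of polyadenylated transcripts compared cells labelled PEPD-OE (over-expression of PEPD, the gene of prolidase, which splits dipeptides ending in proline) with cells labelled NC, an abbreviation that the labels do not expand. Both arms were made in T98G and in U251, long-established lines grown from human glioblastoma, which gave 4 groups of 3 libraries. For the construct, the harvest time and the use of a clone or a mixed population, the sources used here give nothing. Nothing in the labels says that replicates came from separate cultures, so every p-value rests on a library-to-library spread that could be technical alone.

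Libraries held 464056 to 924204 counts, a shallow depth at which 3 counts equalled 3.25 to 6.46 CPM (counts scaled by library size). All 41 genes together held 22546 counts, 0.246% of the total. PEPD stood at 164 ± 9.50 CPM in T98G PEPD-OE against 11 ± 8.20 in T98G NC. In U251 it stood at 175 ± 10.6 against 9.55 ± 3.44 (mean ± SD, n = 3 throughout). The libraries thus matched their PEPD-OE and NC labels, while PEPD does not check which line a library came from. Of 10 markers of glioma and astrocytes, 7 had enough counts to be tested. OLIG2 was at 0 in all 12 libraries, FABP7 was at 0 in T98G, and SOX2 stood at means of 0.433 to 0.519 CPM and NES at 2.48 to 6.27 there. Group means were 474 to 2091 CPM for VIM, 361 to 804 for CD44 and 48.0 to 1436 for GFAP. SOX9 stood at 31.0 to 101. EPCAM of epithelium and VWF of endothelium were at 0 in all libraries. However, the epithelial markers KRT8 and CLDN4 had group means of 32.7 to 84.7 and 22.9 to 101 CPM. KDR of endothelium stood at 9.21 and 13.3 CPM in the U251 groups.

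The libraries kept the strand of each transcript, and in the deposited table counts often stood under the gene on the other strand. BEST1 held 486557 counts and FTH1, which it overlaps, 10068. TUBA1B-AS1 held 191395 and TUBA1B 2894, and the light-strand mitochondrial gene MT-ND6 held 122796 against 15913 for the heavy-strand MT-CO1. No source used here gives the strand setting of the counting or the share of each subunit's reads that the table holds. In GENCODE 29 (GRCh38), 27 of the 41 genes share no exon base with a gene on the opposite strand, and 14 do. For 5 of these the overlap covers more than 10% of exon bases (PSMC1, PSMD7, PSMA2, PSMC5 and PSMD1), and there reads of the gene and of its partner cannot be told apart.

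Of the 41 genes, 37 passed the filter on low counts and were tested. PSMA8, an alpha subunit of testis, and PSMB11, a catalytic subunit of thymus, had 0 counts. PSMA2 held 22 counts and PSMA6 held 54 over all libraries, too few for the test, although both encode subunits of every core particle. PSMA2 stood at 7.53, 5.97 and 5.34 CPM in U251 PEPD-OE and at 0 in all 3 U251 NC libraries, but its exons overlap AC010132.2. The 43 pseudogenes named after these genes held 58 counts together. PSMC1 has 13 such copies and PSME2 has 6, so reads shared with them are uncertain.

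The sequence before the start of transcription is shown for PSMC3, PSMC6 and PSMA4. These fell in T98G under every alternative run and share no exon base with an opposite gene. The same held for PSMB7, whose sequence is not shown. Sequences are also given for PSMD6, which rose in T98G, and for PSME1, which fell in U251. The sequences are from RefSeq (GRCh38.p14), read 5′ to 3′ on the gene's strand. They cover the 250 bases before the RefSeq start, less the bases next to the start that GENCODE 29 places in an exon. For PSMD6 the 2 annotations differ: GENCODE 29 starts the gene at 64024010, so the stretch shown lies inside its GENCODE span. Capitals mark matches, on either strand, to 4 motifs: TGACNNNGC, the core of the antioxidant response element that NFE2L1 and NFE2L2 bind; CCAAT, the box of NF-Y; CCGGAAG, an ETS core; and the core of the interferon-stimulated response element, which reads GAAA, any 2 bases, GAAA.
PSMC3, chr11:47426474-47426689, minus strand: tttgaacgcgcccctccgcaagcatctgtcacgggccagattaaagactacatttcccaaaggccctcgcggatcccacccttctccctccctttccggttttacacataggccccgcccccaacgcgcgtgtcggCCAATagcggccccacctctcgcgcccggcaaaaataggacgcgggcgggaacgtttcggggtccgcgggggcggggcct
PSMC6, chr14:52706950-52707171, plus strand: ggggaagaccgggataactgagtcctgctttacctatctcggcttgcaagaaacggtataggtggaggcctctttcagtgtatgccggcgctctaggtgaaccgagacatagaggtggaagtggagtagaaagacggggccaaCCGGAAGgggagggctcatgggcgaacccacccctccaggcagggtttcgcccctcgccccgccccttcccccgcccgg
PSMA4, chr15:78540155-78540404, plus strand: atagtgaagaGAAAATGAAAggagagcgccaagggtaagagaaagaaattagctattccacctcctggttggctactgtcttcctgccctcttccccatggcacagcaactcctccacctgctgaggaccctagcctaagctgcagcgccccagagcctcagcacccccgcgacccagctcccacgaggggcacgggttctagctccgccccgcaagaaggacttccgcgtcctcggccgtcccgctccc
PSMD6, chr3:64023561-64023744, minus strand: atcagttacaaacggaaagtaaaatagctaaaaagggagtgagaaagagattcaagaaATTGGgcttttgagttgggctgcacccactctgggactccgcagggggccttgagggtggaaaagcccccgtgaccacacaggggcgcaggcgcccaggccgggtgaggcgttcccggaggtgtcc
PSME1, chr14:24135944-24136157, plus strand: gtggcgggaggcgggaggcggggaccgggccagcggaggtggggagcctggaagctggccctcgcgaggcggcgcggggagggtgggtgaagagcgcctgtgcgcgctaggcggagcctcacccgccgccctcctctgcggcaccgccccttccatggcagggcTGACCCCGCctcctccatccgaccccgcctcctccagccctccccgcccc

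PSMC3 holds a CCAAT box beginning 114 bases before the RefSeq start, PSMC6 an ETS core at 107, PSMA4 an interferon-stimulated response element core at 240, PSMD6 a CCAAT match on the other strand at 192, and PSME1 a TGACNNNGC match at 86. None of the matches shown overlapped another. A RefSeq entry was found for 36 of the 41 genes. In the full windows of 250 bases, TGACNNNGC was present in 8 of the 36 (22.2%, against 10.9% of all 35116 promoters), CCAAT in 16 (44.4% against 32.0%), CCGGAAG in 9 (25.0% against 8.52%) and the interferon-stimulated response element core in 4 (11.1% against 3.02%). Among the 13 genes lower in T98G PEPD-OE that have an entry, these counts were 2, 5, 1 and 2. Among the other 19 tested genes with an entry they were 6, 9, 7 and 2. The 35116 promoters were not limited to the 8773 genes tested, and were not matched to the 36 for expression or base content. Whether the percentages differ beyond that was not tested. A match describes the letters only and shows no binding.

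With PEPD over-expression in T98G, scaled counts of 15 proteasome genes were lower, among them genes of the alpha and beta rings, the ATPase ring, the lid and the activators. How far these counts follow the transcripts is not known. The strand setting of the counting is not given, and in the gene pairs above far more counts stood under the gene on the other strand. The counts of a subunit gene may thus hold only a small part of its reads. The summed level of the 41 genes was 1997, 2152 and 2116 CPM in the PEPD-OE libraries and 2634, 2636 and 2741 in NC. The groups did not overlap, and the PEPD-OE mean of 2088 ± 81.1 lay 21.8% below the NC mean of 2670.3 ± 61.2. As a share of raw counts, before any scaling, the genes took 0.176% to 0.191% against 0.269% to 0.286%. Fewer transcribing cells and less RNA per cell cannot be told apart in bulk samples.

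In T98G, 15 of the 37 genes tested fell and 1, PSMD6, rose (edgeR, adjusted p under 0.05), while 21 did not pass the test. Of all 8773 genes tested, 32.3% were called, 14.7% lower and 17.7% higher. The median log2 change of the 37 was -0.52, against 0.00 for all genes, and 28 of the 37 lay below 0, against 49.8% of all genes. The PEPD-OE and NC libraries did not overlap for 17 genes that were lower and 1 that was higher, where 20.9% and 22.6% of all genes did so. DESeq2 called 11 lower and 1 higher, with 23.9% of all genes called, 10.4% lower and 13.5% higher. Without T98G PEPD-OE replicate 1 the counts dropped to 9 lower and 1 higher, with 25.9% of all genes called (11.5% lower, 14.4% higher), since PSMA7, PSMB2, PSMC4, PSMD3, PSMD11 and PSMD14 lost their calls. Among only the genes without opposite overlap, 24 of these genes were tested, 8 fell and 1 rose, where 27.3% of all such genes were called. Of the 16 calls, 6 held under every alternative that included the gene, those of PSMA4, PSMB7, PSMC1, PSMC3, PSMC5 and PSMC6. The fit of genes without opposite overlap left out PSMC1 and PSMC5.

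Several measures moved with PEPD-OE in T98G. Mitochondrial genes took 7.50% to 9.32% of counts against 4.94% to 6.01% in NC, and TALAM1, an antisense RNA of the MALAT1 locus, took 3.48% to 4.18% against 1.11% to 1.23%. The glioma and astrocyte markers summed to 1183 to 1367 CPM against 1631 to 1695, and 4 fibroblast markers to 541 to 667 against 243 to 309. Of the glioma markers tested, only VIM and SOX9 were called in T98G (-0.61 and -1.37, edgeR adjusted p = 1.98e-08 and 9.32e-08). GFAP lay higher without a call (0.42, edgeR adjusted p = 0.0816). COL1A2 held most of the fibroblast sum, at a mean of 534 CPM against 224. With the mitochondrial genes, TALAM1, MALAT1 and BEST1 left out of the table, the count of proteasome genes called stayed at 15 lower and 1 higher, and in U251 it was 3 lower. Over all alternatives, calls among all genes ran from 1140 to 3023 in T98G and from 245 to 792 in U251. Epithelial markers summed to 124 to 179.5 CPM against 87.8 to 134. That sum joined opposite changes: CLDN4 rose by 2.13 and KRT8 fell by 0.80 (edgeR adjusted p = 1.12e-14 and 0.00321). None of the 4 macrophage or 4 endothelial markers had enough counts to be tested. The macrophage markers summed to 2.85 to 56.1 CPM in T98G PEPD-OE and 0 to 58.5 in T98G NC. In U251 they summed to 0 to 7.53 with PEPD-OE and 2.56 to 10.3 in NC. In U251 the glioma and astrocyte markers also summed lower with PEPD-OE, to 3277 to 3838 CPM against 4721 to 4817 in NC. There VIM, GFAP and SOX2 were called lower (-0.41, -0.62 and -0.47, edgeR adjusted p = 2.54e-04, 2.09e-07 and 0.00441). The fibroblast sum, higher with PEPD-OE in T98G, was lower in U251, at 309 to 399 against 501 to 541. The part of the marker lists in the result was not tested.

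**Figure D1:**
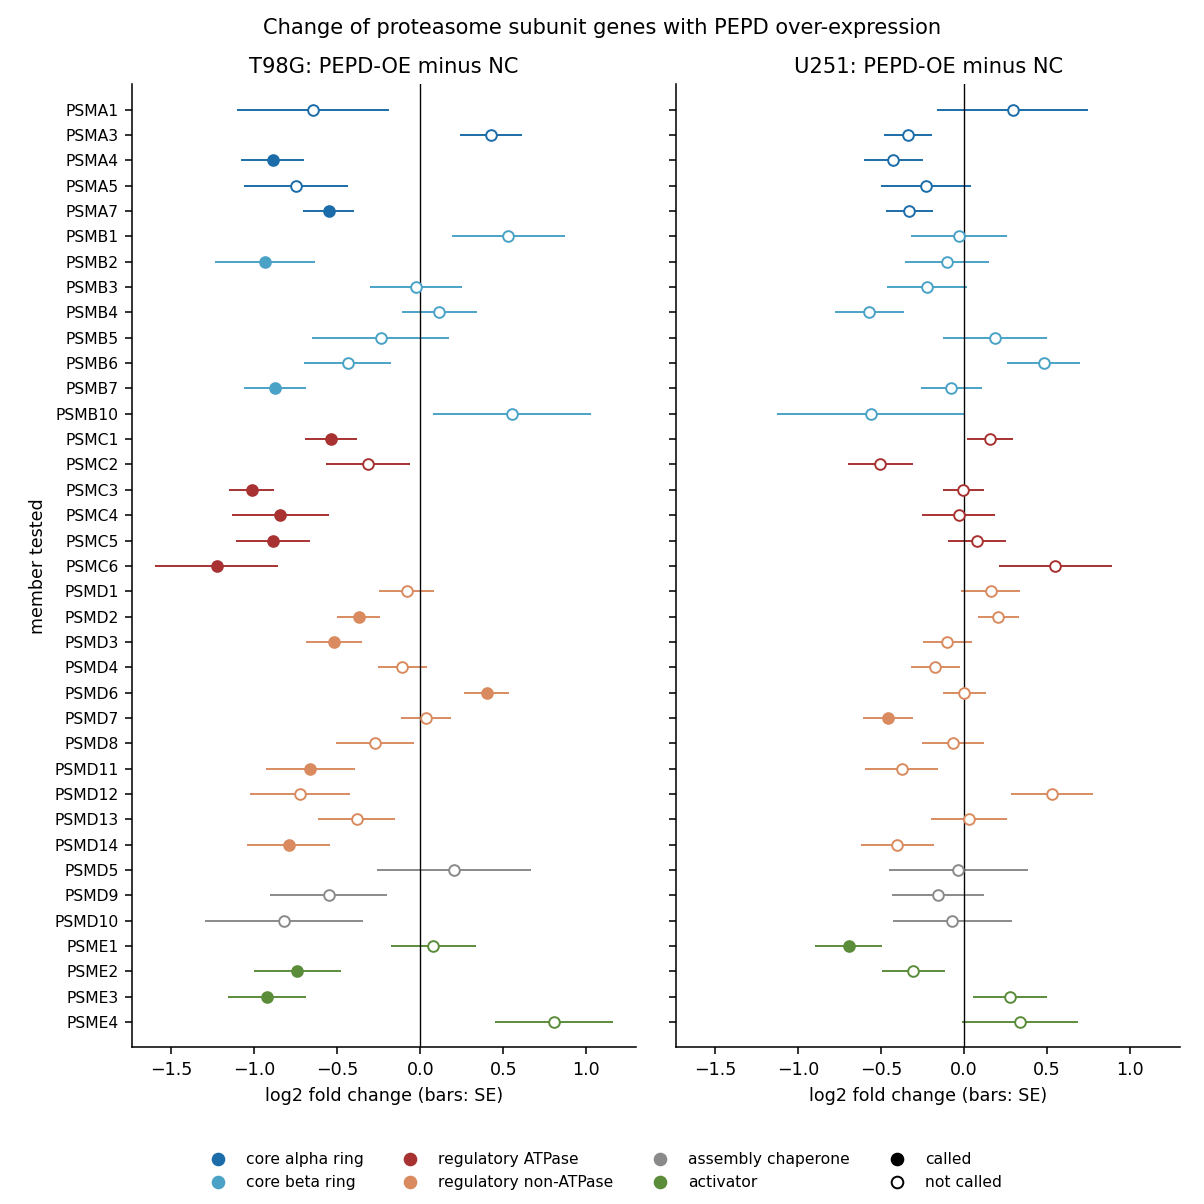
Log2 fold change of each of the 37 genes tested (PEPD-OE over NC, bars are the SE), coloured by role, in T98G on the left and U251 on the right, with filled points for adjusted p under 0.05. In T98G 15 filled points lie left of 0 and PSMD6 right of it; in U251 only PSMD7 and PSME1 are filled, both left of 0.

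The ATPase ring, which unfolds the substrate, had the lowest median change of the 6 classes in T98G. All 6 of its genes lay below 0, 5 of them fell, where 14.7% of all genes did, and the median change was -0.86. Summed CPM were 322, 363 and 325 in T98G PEPD-OE and 572, 615 and 572 in T98G NC, a mean 42.5% lower. In U251 the sums were 553, 653 and 553 with PEPD-OE and 608, 585 and 558 in NC, and these groups overlapped.

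PSMC3 (ENSG00000165916, chr11:47418769-47426473, GRCh38, minus strand, no opposite overlap), an ATPase subunit that also contacts ubiquitin chains, stood at 127, 137 and 119.7 CPM in T98G PEPD-OE and at 257, 261 and 257 in T98G NC. No PEPD-OE library came near the NC level, and it fell by 1.02 on the log2 scale (SE 0.14, edgeR adjusted p = 1.40e-10). In U251 the libraries read 209, 249.5 and 206 with PEPD-OE and 225, 236 and 208 in NC, a change of -0.01 (SE 0.12, edgeR adjusted p = 0.992). The change differed between the lines by -1.01 (SE 0.18, edgeR adjusted p = 2.95e-06).

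PSMC6 (ENSG00000100519, chr14:52707172-52728587, plus strand) was a low-count gene, with 171 counts in all. Its level was 13.3, 7.79 and 14.2 CPM in T98G PEPD-OE against 31.7, 31.2 and 22.6 in NC, without overlap, a fall of 1.23 (SE 0.37, edgeR adjusted p = 0.00525). Its U251 libraries read 19.6, 26.3 and 20.3 against 14.4, 6.44 and 24.3, where NC spread widely. The difference between lines was -1.78 (SE 0.50, edgeR adjusted p = 0.00355).

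PSMC5 (opposite FTSJ3 over 19.5% of its exon bases) was at 38.5, 39 and 34.2 CPM in T98G PEPD-OE and 73.9, 75.4 and 59 in NC, a fall of 0.89 (SE 0.22, edgeR adjusted p = 6.92e-04). Its U251 libraries read 67.8, 96.7 and 80.1 against 87.9, 61.8 and 83.3, overlapping, and the lines differed by -0.96 (edgeR adjusted p = 0.00518). FTSJ3, a ribosomal RNA methyltransferase, also fell in T98G, by 0.50 (SE 0.18, edgeR adjusted p = 0.025). PSMC1, whose exons lie opposite NRDE2 over 75.8% of their bases, was at 90.2, 115 and 104 against 135, 159 and 152 in T98G and at 163, 164 and 156 against 153, 155 and 126 in U251. It fell in T98G by 0.54 (edgeR adjusted p = 0.0034), and the lines differed by -0.69 (edgeR adjusted p = 0.00635). NRDE2, with 16627 counts to PSMC1's 1251, fell by 0.52 in T98G (SE 0.08, edgeR adjusted p = 2.57e-08). In U251 NRDE2 changed by -0.22 and PSMC1 by 0.15, each without overlap of its libraries but not called (edgeR adjusted p = 0.0705 and 0.597). Between the NC groups, NRDE2 was lower in T98G by 0.54 (edgeR adjusted p = 3.46e-09) and PSMC1 differed by 0.05 (edgeR adjusted p = 0.789).

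PSMC4 was at 16.3, 24.9 and 22.8 CPM in T98G PEPD-OE and 42.2, 48.1 and 26.3 in NC, a fall of 0.84 (edgeR adjusted p = 0.0181). The lowest NC library was only just above the highest PEPD-OE library, and the call was lost with DESeq2 (0.0713), without T98G PEPD-OE replicate 1 (0.113) or T98G NC replicate 2 (0.183) (adjusted p in parentheses, here and below). The U251 values were 43.7, 47.8 and 50.2 against 43.3, 69.6 and 33.3, and the difference of -0.81 between the lines did not pass (edgeR adjusted p = 0.0906). PSMC2 was the ATPase gene without a call, at 35.3 ± 4.75 against 42.4 ± 11.9 CPM in T98G (-0.32, edgeR adjusted p = 0.363) and 53.2 ± 14.6 against 75.2 ± 16 in U251 (-0.51, edgeR adjusted p = 0.0966).

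**Figure D2:**
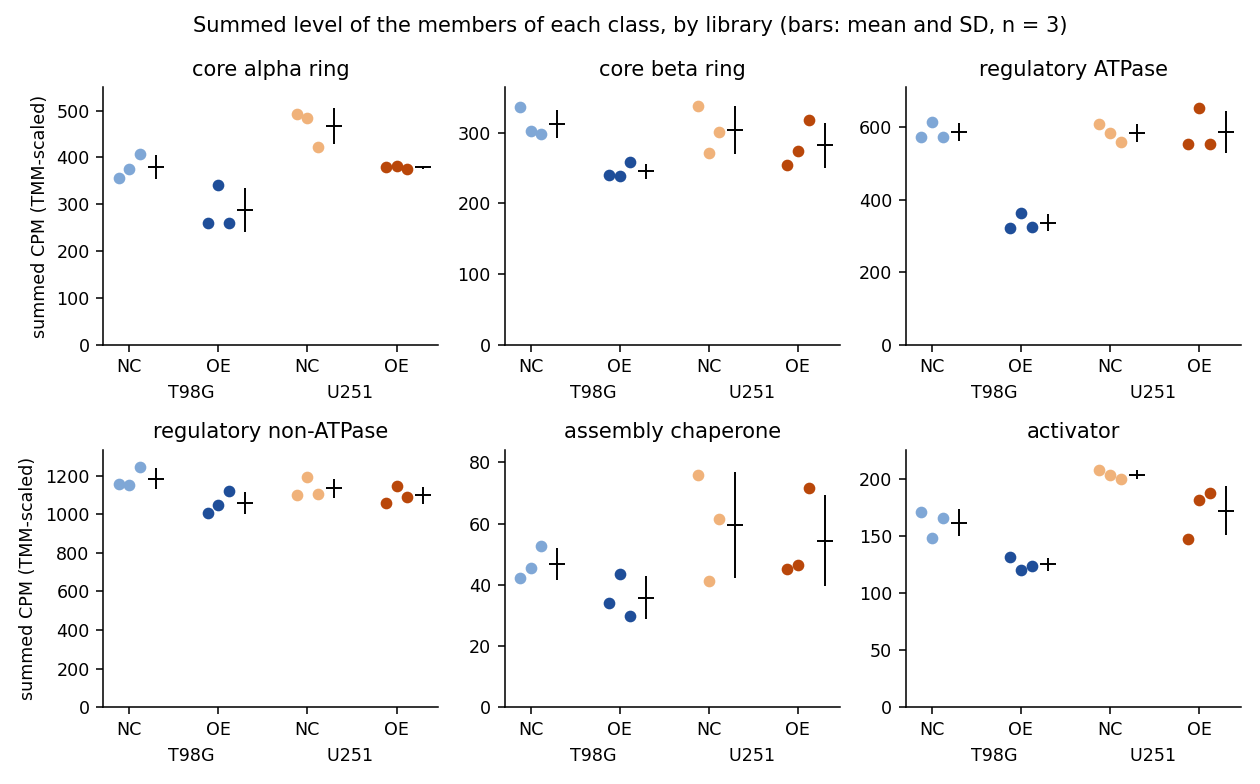
Summed CPM of the genes of each class in each library (points), with the mean and SD of 3 libraries beside them, for NC and PEPD-OE (OE) in T98G and U251. The ATPase sums separate most, at 322 to 363 in T98G PEPD-OE and 572 to 615 in T98G NC, while the 2 U251 groups overlap.

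The non-ATPase genes encode ubiquitin receptors, scaffolds and the lid. Of the 11, 4 fell and 1 rose in T98G, where 14.7% and 17.7% of all genes did so, with a median of -0.37. Their summed level of 1058 ± 55.8 CPM lay 10.7% below the NC level of 1184 ± 53.1. PSMD14, the subunit that cuts ubiquitin chains off the substrate, was at 25.1, 26.5 and 35.6 in T98G PEPD-OE and 61.2, 52 and 42.7 in NC, without overlap. It fell by 0.79 (SE 0.25, edgeR adjusted p = 0.0082), and its U251 values of 42.2, 39.4 and 35.2 against 49.4, 47.7 and 56.4 did not overlap either, without passing the test (-0.40, edgeR adjusted p = 0.295). The T98G call of PSMD14 was lost without T98G PEPD-OE replicate 1 (0.0537).

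The large scaffold subunit PSMD2, the member with most counts (2062), read 209, 189 and 202 CPM in T98G PEPD-OE and 230.0, 257 and 282 in NC. These libraries did not overlap, and it fell by 0.37 (SE 0.13, edgeR adjusted p = 0.019), a call lost with DESeq2 (0.0675), with no filter on counts (0.0511), among genes without opposite overlap (0.0557), without T98G PEPD-OE replicate 2 (0.0884) or T98G NC replicate 3 (0.141). In the U251 libraries it stood at 235, 290.1 and 224 against 207, 252 and 191, overlapping, and the lines differed by -0.58 (edgeR adjusted p = 0.009). The difference of PSMD2 lost its call with DESeq2 (0.0506), without T98G NC replicate 3 (0.0523) or U251 PEPD-OE replicate 2 (0.0705). The lid subunit PSMD3 fell in T98G from 127, 129 and 110.4 to 71, 79.5 and 103, by 0.52 (edgeR adjusted p = 0.0105), and was at 117 ± 2.51 against 126 ± 25.9 in U251. The PSMD3 call was lost without T98G PEPD-OE replicate 1 (0.102) or T98G NC replicate 2 (0.0545).

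PSMD11, another lid subunit, was at 28.1, 31.2 and 27.1 CPM in T98G PEPD-OE and 46.4, 35.1 and 55.2 in NC, a fall of 0.66 close to the threshold (edgeR adjusted p = 0.0441). That call was lost under 8 of its 21 alternatives, with DESeq2 (0.145), with no filter on counts (0.0938), with a filter of 1 CPM in 3 libraries (0.0686), without T98G PEPD-OE replicate 1 (0.105), T98G PEPD-OE replicate 2 (0.0598), T98G PEPD-OE replicate 3 (0.116), T98G NC replicate 1 (0.0698) or T98G NC replicate 3 (0.289). PSMD12, also of the lid, was at 11.8, 28 and 22.8 against 21.1, 27.3 and 50.2 in T98G and at 52.7, 40.6 and 42.7 against 26.5, 30.9 and 35.9 in U251. Neither change passed (-0.73 and 0.53, edgeR adjusted p = 0.0539 and 0.188), but their difference did, at -1.26 (SE 0.39, edgeR adjusted p = 0.00857). Without T98G NC replicate 3, its highest T98G library, the difference was -0.79, and the call was lost with DESeq2 (0.0724), without T98G PEPD-OE replicate 1 (0.0691) or T98G NC replicate 3 (0.2).

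PSMD6 (chr3:64010549-64024010, minus strand, opposite PSMD6-AS1 and PSMD6-AS2, which held 18 and 48 counts) was the member that rose. It stood at 214, 231 and 222 CPM in T98G PEPD-OE and 162, 159 and 183 in NC, with every PEPD-OE library above every NC library, a rise of 0.40 (SE 0.13, edgeR adjusted p = 0.014). In U251 the values were 239.6, 179 and 196 and 205, 198 and 208, overlapping. The T98G call was lost without T98G PEPD-OE replicate 2 (0.0642) or T98G NC replicate 2 (0.0997). The difference of 0.40 between the lines did not pass (edgeR adjusted p = 0.0996). PSMD7, which pairs with PSMD14 in the lid, changed by 0.03 in T98G (edgeR adjusted p = 0.892), at 142, 145 and 142 against 149.8, 149 and 123. PSMD7 fell in U251, where its libraries read 82.9, 91.9 and 123 with PEPD-OE and 139.6, 122 and 152 in NC and overlapped at 1 value, by 0.46 (SE 0.15, edgeR adjusted p = 0.0376). That call was lost under 8 of its 21 alternatives, with DESeq2 (0.114), with no filter on counts (0.0946), with a filter of 1 CPM in 3 libraries (0.0699), with each line fitted alone (0.054), without U251 PEPD-OE replicate 1 (0.163), U251 PEPD-OE replicate 2 (0.174), U251 NC replicate 1 (0.107) or U251 NC replicate 3 (0.202). AC009120.2, opposite PSMD7 over 30.7% of its exon bases with 4610 counts, changed by -0.20 in U251 (edgeR adjusted p = 0.269). In T98G, where PSMD7 was not called, AC009120.2 fell by 0.26 (edgeR adjusted p = 0.0463). Its PEPD-OE libraries lay below its NC libraries without overlap in both lines. The ubiquitin receptor PSMD4 (-0.11), PSMD1 (-0.08), PSMD8 (-0.27) and PSMD13 (-0.38) did not pass in T98G.

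In the alpha ring, which gates the core, 2 of the 5 genes tested fell in T98G, where 14.7% of all genes did, with a median of -0.65. PSMA4 (chr15:78540405-78552419, plus strand, no opposite overlap) was at 45.9, 76.3 and 49.9 CPM in T98G PEPD-OE and 106, 113 and 99.1 in NC. The groups did not overlap, and it fell by 0.89 (SE 0.19, edgeR adjusted p = 4.83e-05). In U251 the libraries read 54.2, 79.98 and 58.7 against 91.5, 91.5 and 78.1, with 1 overlap (-0.43, edgeR adjusted p = 0.129). PSMA7 was at 87.3, 126 and 107 against 148, 149 and 169 in T98G, a fall of 0.55 (edgeR adjusted p = 0.00269), and at 108, 131 and 148 against 163, 182 and 149.9 in U251, where the groups did not overlap either (-0.33, edgeR adjusted p = 0.141). The T98G call of PSMA7 was lost without T98G PEPD-OE replicate 1 (0.0506). For neither gene did the difference between lines pass (-0.46 and -0.22, edgeR adjusted p = 0.188 and 0.479).

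PSMA3 had values of the other sign in T98G. It was at 93.2, 95 and 72.7 CPM in T98G PEPD-OE and 59.1, 55.9 and 76.5 in NC (0.43, edgeR adjusted p = 0.0718), and at 170.3, 118 and 117 against 178, 169 and 159 in U251 (-0.34, edgeR adjusted p = 0.133). Neither change passed, but the difference between lines did, at 0.76 (SE 0.24, edgeR adjusted p = 0.00805). The difference lost its call without T98G NC replicate 2 (0.0553). In a fit of only the genes without opposite overlap, the T98G change of PSMA3 did pass (0.46, adjusted p = 0.0412). PSMA5 (-0.75, edgeR adjusted p = 0.0527) and PSMA1 (-0.65, edgeR adjusted p = 0.295) did not pass in T98G.

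In the beta ring, 2 of 8 genes tested were called in T98G, both lower, where 32.3% of all genes were called and 14.7% fell. The median was -0.13. PSMB7 (chr9:124353466-124415444, minus strand, no opposite overlap), which carries the trypsin-like site, was at 54.7, 62.3 and 55.6 CPM in T98G PEPD-OE and 101, 104 and 110.4 in NC. The groups lay far apart, and it fell by 0.88 (SE 0.19, edgeR adjusted p = 5.03e-05). Its U251 libraries read 61.8, 56.1 and 75.8 against 66.2, 58 and 82, overlapping, and the lines differed by -0.80 (SE 0.26, edgeR adjusted p = 0.0139). That difference lost its call with DESeq2 (0.0777), without U251 PEPD-OE replicate 3 (0.0859) or U251 NC replicate 2 (0.0595). The structural subunit PSMB2 was at 11.8, 17.1 and 29.9 against 50.6, 33.8 and 33.9 in T98G, a fall of 0.94 (SE 0.30, edgeR adjusted p = 0.00907). It was at 32.7 ± 4.40 against 35.8 ± 9.32 in U251, and the T98G call was lost without T98G PEPD-OE replicate 1 (0.118) or T98G NC replicate 1 (0.063).

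The other catalytic genes were not called in either line. PSMB6, of the caspase-like site, read 31.1, 34.3 and 25.6 CPM in T98G PEPD-OE and 57, 32.5 and 38.9 in NC (-0.44), and 45.2, 54.9 and 54.5 against 39.7, 37.4 and 34.6 in U251 (0.48), where PEPD-OE lay above NC in every library. The difference between lines of -0.92 passed (SE 0.34, edgeR adjusted p = 0.034), but lost its call under 11 of 21 alternatives, with DESeq2 (0.125), with no filter on counts (0.0937), with a filter of 1 CPM in 3 libraries (0.0677), among genes without opposite overlap (0.0542), without T98G PEPD-OE replicate 1 (0.0544), T98G PEPD-OE replicate 3 (0.0991), T98G NC replicate 1 (0.141), U251 PEPD-OE replicate 2 (0.067), U251 PEPD-OE replicate 3 (0.0616), U251 NC replicate 2 (0.0517) or U251 NC replicate 3 (0.0636). PSMB5, of the chymotrypsin-like site that bortezomib blocks, was at 13.3, 17.1 and 7.12 against 10.6, 13 and 18.8 in T98G and 21.1, 28.7 and 20.3 against 22.9, 20.6 and 17.9 in U251. Its groups overlapped in both lines (edgeR adjusted p = 0.708 and 0.81). PSMB10, the interferon-inducible counterpart of PSMB7, had only 81 counts, at 19.2, 4.67 and 18.5 against 2.11, 14.3 and 10.04 in T98G and 6.03, 4.78 and 5.34 against 8.43, 3.86 and 11.5 in U251, with the groups overlapping in T98G and U251 alike. PSMB8 and PSMB9, the inducible catalytic genes outside the rule, fell in T98G by 1.36 and 1.00 (edgeR adjusted p = 5.54e-04 and 0.0199), and each lies opposite a neighbour. PSMB1 (0.53), PSMB3 (-0.03) and PSMB4 (0.11) did not pass in T98G.

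Among the activators, which open the core without ubiquitin, PSME2 and PSME3 fell in T98G and PSME1 fell in U251. PSME3, the nuclear PA28 gamma subunit (chr17:42824385-42843758, plus strand, opposite BECN1 over 5.82% of its exon bases), was at 38.5, 32.7 and 32.8 CPM in T98G PEPD-OE and 57, 50.7 and 86.6 in NC. The groups did not overlap, and it fell by 0.92 (SE 0.23, edgeR adjusted p = 7.86e-04). The U251 values were 34.7, 60.9 and 52.3 against 39.7, 42.5 and 42.3, overlapping, and the lines differed by -1.20 (SE 0.32, edgeR adjusted p = 0.00206). T98G NC replicate 3 was its highest library, and without it the T98G change was -0.62 and was not called (adjusted p = 0.0846), nor was the difference without T98G NC replicate 3 (0.0527). BECN1, with 232 counts, changed by -0.01 in T98G (edgeR adjusted p = 0.984).

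PSME1 and PSME2, which together form the interferon-inducible PA28 ring, were called in different lines. PSME1 was at 34, 42.1 and 38.5 CPM in T98G PEPD-OE and 57, 27.3 and 31.4 in NC, overlapping (0.08). In the U251 libraries it stood at 39.2, 46.6 and 51.3 against 72.2, 82.4 and 70.4, with every PEPD-OE library below every NC library, a fall of 0.70 (SE 0.20, edgeR adjusted p = 0.0137). The call was lost with DESeq2 (0.0883), without U251 PEPD-OE replicate 1 (0.0666), U251 PEPD-OE replicate 2 (0.0521) or U251 NC replicate 2 (0.077). Its difference between lines of 0.77 did not pass (edgeR adjusted p = 0.0643).

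PSME2 was at 26.6, 23.4 and 27.1 CPM in T98G PEPD-OE and 42.2, 45.5 and 41.4 in NC, a fall of 0.74 (SE 0.26, edgeR adjusted p = 0.0205), and the call was lost with DESeq2 (0.0653), with no filter on counts (0.0562), without T98G PEPD-OE replicate 2 (0.0735) or T98G NC replicate 2 (0.0736). U251 gave 54.2, 60.9 and 58.7 against 80.7, 64.4 and 70.4, without overlap but not called (-0.31, edgeR adjusted p = 0.374). The difference between lines was -0.43 (edgeR adjusted p = 0.344). PSME4, the nuclear activator PA200, was at 32.5, 21.8 and 25.6 against 14.8, 24.7 and 6.27 in T98G (0.81, edgeR adjusted p = 0.07) and 19.6, 13.1 and 25.6 against 15.7, 14.2 and 16.7 in U251, with overlap in both. The assembly chaperones PSMD5, PSMD9 and PSMD10, which help build the ATPase ring and then leave, had 107, 213 and 128 counts. None was called in either line by edgeR or DESeq2, and none had an unadjusted p under 0.05.

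**Figure D3:**
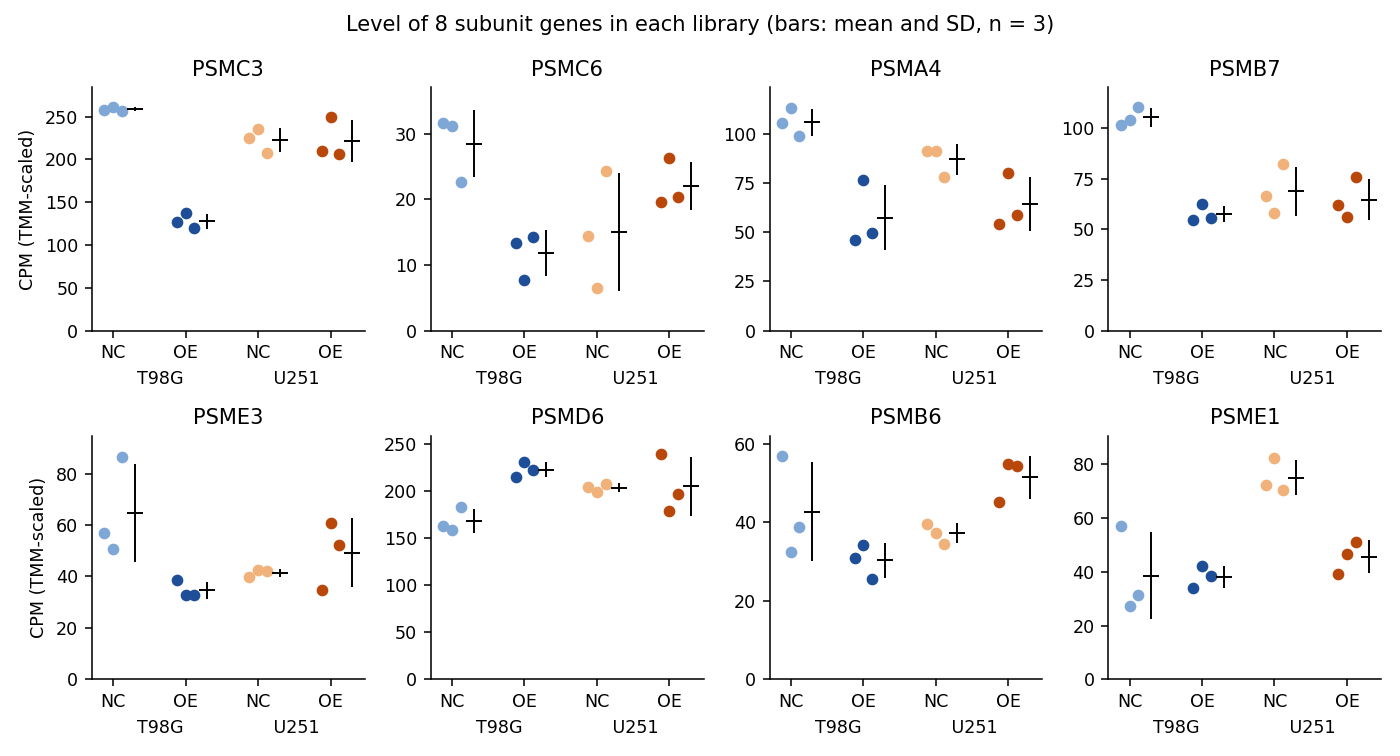
CPM of 8 proteasome genes in each library (points), with the mean and SD of 3 libraries, for NC and PEPD-OE (OE) in T98G and U251. PSMC3, PSMC6, PSMA4, PSMB7 and PSME3 are lower in T98G PEPD-OE than in T98G NC without overlap, PSMD6 is higher, and PSME1 is lower with PEPD-OE in U251.

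With PEPD over-expression in U251, PSME1 and PSMD7 fell and none rose, 2 of the 37 genes tested, where 8.55% of all genes were called, 4.42% lower and 4.13% higher. The median change was -0.07, against 0.00 for all genes, and 24 of the 37 lay below 0, against 49.3% of all genes. At an unadjusted p under 0.05 there were 9 genes, and DESeq2 called 0 of 37, with 7 at an unadjusted p under 0.05 and 3.96% of all genes called. Among genes without opposite overlap edgeR called 0 of 24, with 7 at an unadjusted p under 0.05 and 5.87% of all such genes called. The PEPD-OE and NC libraries did not overlap for 3 genes that were higher (PSMB6, PSMC1 and PSMD12) and 4 that were lower (PSMA7, PSMD14, PSME1 and PSME2), where 11.4% and 11.0% of all genes did so. The summed level of all 41 genes was 2438, 2681 and 2596 CPM against 2825, 2779 and 2650.1 in NC, overlapping. The sums of 3 sets did not overlap. The core particle read 634 to 693 CPM with PEPD-OE against 724 to 832 in NC, a mean 14.2% lower, and within it the alpha ring read 376 to 382 against 423 to 494, 18.8% lower. The activators read 148 to 188 against 199.8 to 208, 15.5% lower. The beta-ring, ATPase, non-ATPase and chaperone sums overlapped. Leaving out 1 U251 library gave 1 to 3 calls, with 1 each without PEPD-OE replicate 1, NC replicate 1 or NC replicate 3.

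Tested directly, the T98G change minus the U251 change passed for 10 of the 37 genes, 9 with the lower value in T98G and PSMA3 with the higher, where 27.7% of all genes passed, 13.6% lower and 14.1% higher. The median difference was -0.41, against -0.02 for all genes. The 9 were PSMB6, PSMB7, PSMC1, PSMC3, PSMC5, PSMC6, PSMD2, PSMD12 and PSME3, so 4 of the 6 ATPases were among them, against 2 of 8 beta-ring and 2 of 11 non-ATPase genes. The share of 10 in 37 was near that of all genes. DESeq2 called 6 of them, with 19.6% of all genes called, and 6 of 24 were called among genes without opposite overlap, where 22.0% of all such genes were. The calls of PSMC1, PSMC3, PSMC5 and PSMC6 held under every alternative that included the gene. PSMC1 and PSMC5 were not part of the fit of genes without opposite overlap.

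**Figure D4:**
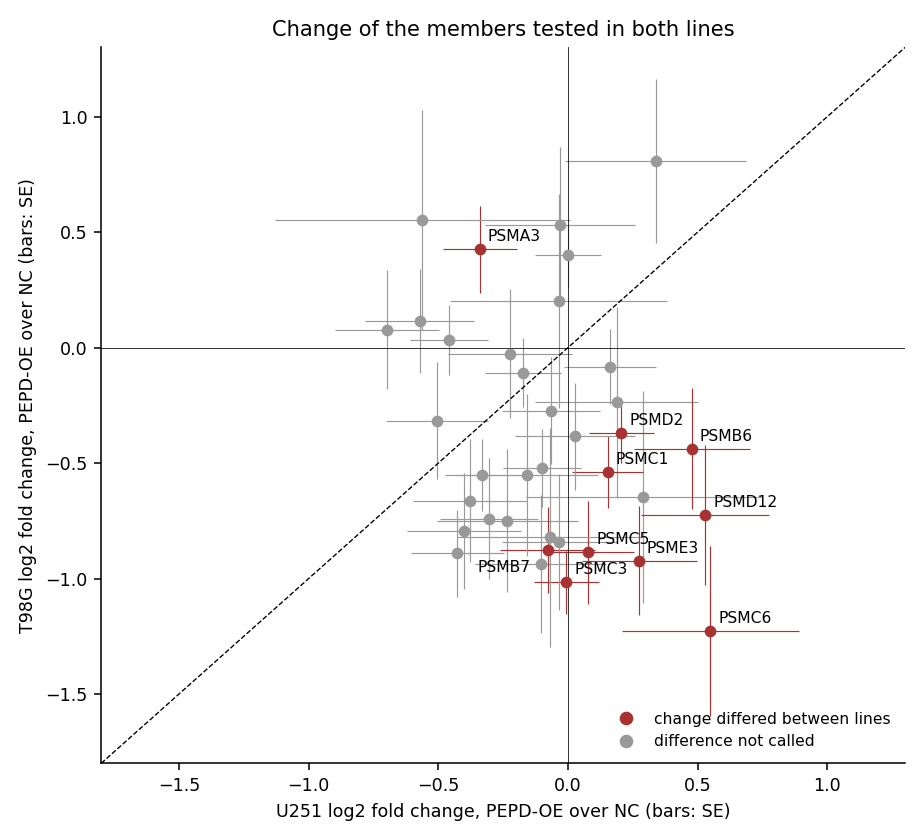
Log2 fold change (PEPD-OE over NC, bars are the SE) of each of the 37 genes in T98G against that in U251, with the line of equal change dashed. The 10 genes in red are those whose change differed between the lines, 9 below the dashed line and PSMA3 above it.

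Between the NC groups of the lines, the summed level of the genes was 2670.3 ± 61.2 and 2751 ± 90.8 CPM, and the median log2 difference was -0.03, against -0.00 for all genes. Higher in T98G NC were 4 genes (PSMB7, PSMC6, PSMD1 and PSME3) and 4 lower (PSMA3, PSMC2, PSME1 and PSME2), 8 of 37, where 48.7% of all genes were called, 24.4% higher and 24.3% lower. Among genes without opposite overlap the count was 5 of 24, with 44.1% of all such genes called. This comparison shares its NC libraries with the comparisons above. PSMA3 differed most, by -1.38 (SE 0.17, edgeR adjusted p = 5.26e-13), and PSME1 next, by -1.05 (SE 0.22, edgeR adjusted p = 2.03e-05). Both stood lower in every T98G NC library than in any U251 NC library. PSMD1, the scaffold of the base (opposite HTR2B), read 106, 117 and 117 in T98G NC and 84.3, 63.1 and 58.9 in U251 NC, a difference of 0.72 (edgeR adjusted p = 1.72e-04). PSMC2 read 31.7, 40.3 and 55.2 against 84.3, 56.7 and 84.5, lower by 0.78 on the log2 scale (edgeR adjusted p = 0.00118), again without overlap. PSMB7 was higher by 0.62 (edgeR adjusted p = 0.00168). The call of PSMC6 was lost with DESeq2 (0.0858), with no filter on counts (0.0525), without T98G NC replicate 1 (0.0573), T98G NC replicate 2 (0.0904), U251 NC replicate 1 (0.0619) or U251 NC replicate 2 (0.225), and that of PSME3 with DESeq2 (0.0529) or without T98G NC replicate 3 (0.272).

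Levels of different genes were compared per kilobase of exon. PSMC3 led in both NC groups, at 114 CPM per kb in T98G and 97.9 in U251, followed by PSMA7 at 88.9 and 94.1. In T98G PEPD-OE PSMA7 (61) and PSMC3 (56.2) were close to each other and to PSMD7 (52.2). Subunits that stand in equal number in the particle spread widely on this scale. In U251 NC the alpha ring ran from PSMA7 at 94.1 and PSMA3 at 54.1 down to PSMA1 at 2.88 and PSMA6 at 0.967, with PSMA2 and PSMA8 at 0, and the ATPase ring from PSMC3 to PSMC6 at 2.01. With the strand setting unknown, these are levels in the table and not necessarily of the transcripts.

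**Figure D5:**
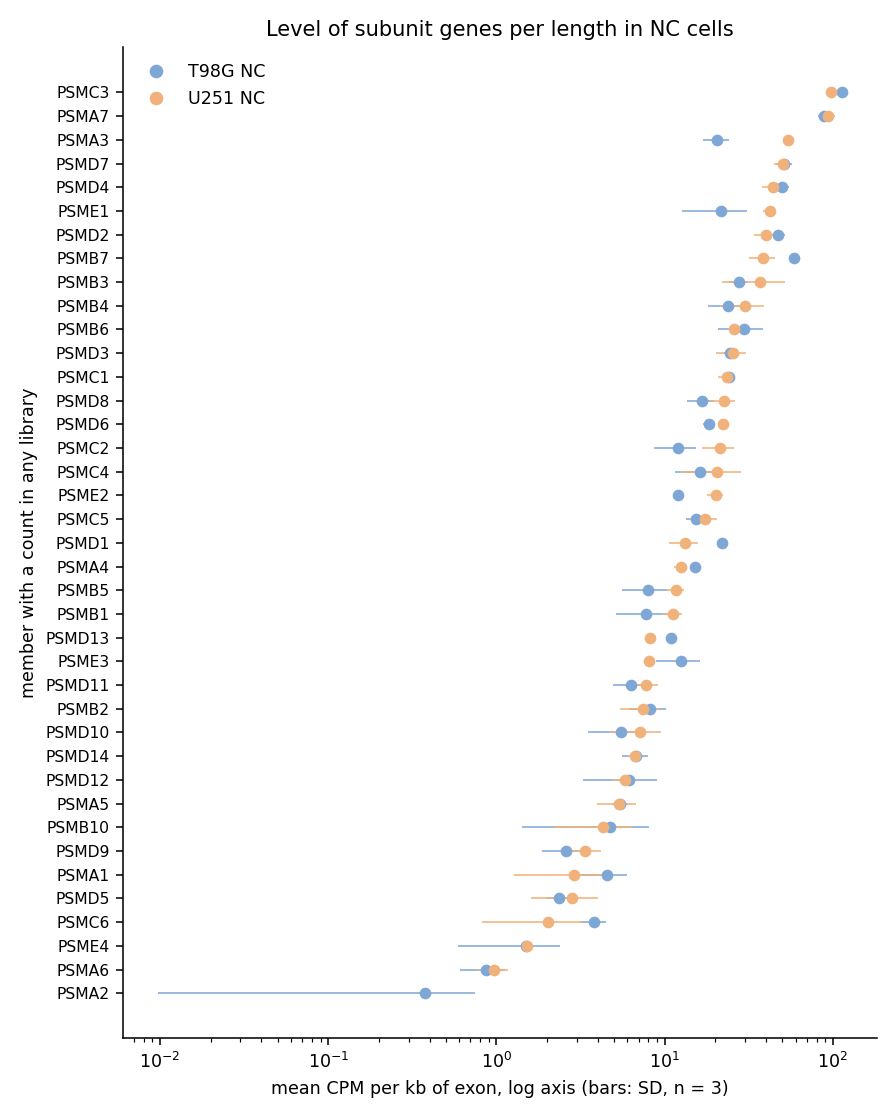
Mean CPM per kilobase of exon on a log axis (bars are the SD of 3 libraries) for the 39 genes with a count in any library, in T98G NC and U251 NC, ordered by U251 NC. PSMC3 and PSMA7 lie highest in both lines; PSMA3 and PSME1 lie lower in T98G, and PSMA2 has no U251 NC point because it was at 0 there.

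Genes that act with the proteasome were taken from 4 lists. Of 8 tested assembly factors and small subunits outside the rule, 1 rose and 1 fell in T98G (median -0.06), where 32.3% of all genes were called. ADRM1, a ubiquitin receptor of the regulatory particle (opposite LAMA5 and AL354836.1), was at 56.2, 48.3 and 67 CPM against 116, 98.7 and 97.8 and fell by 0.84 (SE 0.19, edgeR adjusted p = 9.30e-05). In U251 it changed by -0.01 (edgeR adjusted p = 0.989), at 117 ± 15.1 against 119 ± 3.58. PSMG4, a core assembly chaperone that lies opposite SLC22A23 and TUBB2B, rose in T98G by 1.18 and fell in U251 by 0.53 (edgeR adjusted p = 5.49e-10 and 2.41e-04). Its 2640 counts may belong in part to those partners, whose share was not tested.

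Of 13 tested deubiquitinases, ligases and shuttles, 3 fell and 1 rose in T98G (median -0.09), a share near the 32.3% of all genes called. UBQLN4, a shuttle for ubiquitinated proteins, was at 11.8, 17.1 and 24.2 CPM against 42.2, 33.8 and 36.4 and fell by 1.04 (SE 0.31, edgeR adjusted p = 0.00429). The proteasome-bound deubiquitinases USP14 and UCHL5 fell by 0.82 and 0.69 (edgeR adjusted p = 0.0111 and 0.0336). USP14 lies opposite THOC1 and UCHL5 opposite RO60. The call of UBQLN4 was lost without T98G PEPD-OE replicate 1 (0.0583), that of USP14 without T98G PEPD-OE replicate 1 (0.0504) or T98G NC replicate 3 (0.105), and that of UCHL5 with DESeq2 (0.115), with no filter on counts (0.0891), with a filter of 1 CPM in 3 libraries (0.0645), without T98G PEPD-OE replicate 1 (0.093), T98G PEPD-OE replicate 2 (0.155), T98G NC replicate 1 (0.107) or T98G NC replicate 2 (0.0561). ZFAND5, a stress-inducible activator of the proteasome, rose from 27.4, 32.5 and 38.9 to 68, 65.4 and 101, by 1.22 (SE 0.23, edgeR adjusted p = 3.78e-06). In U251 none of the 13 was called by edgeR or DESeq2, and 2 had an unadjusted p under 0.05 with each tool.

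Of the 10 genes of NFE2L1 processing and VCP, 2 fell in T98G (median -0.24), where 14.7% of all genes fell: SEL1L by 0.82 and FAF2 by 0.63 (edgeR adjusted p = 0.0332 and 0.0395), both of which serve degradation from the endoplasmic reticulum. The call of SEL1L was lost with DESeq2 (0.136), with no filter on counts (0.0859), with a filter of 1 CPM in 3 libraries (0.0618), without T98G PEPD-OE replicate 1 (0.112), T98G PEPD-OE replicate 3 (0.157), T98G NC replicate 2 (0.225) or T98G NC replicate 3 (0.0777). The call of FAF2 was lost with DESeq2 (0.138), with no filter on counts (0.103), with a filter of 1 CPM in 3 libraries (0.0753), among genes without opposite overlap (0.0618), without T98G PEPD-OE replicate 1 (0.175), T98G PEPD-OE replicate 2 (0.0628), T98G PEPD-OE replicate 3 (0.0503), T98G NC replicate 1 (0.0665), T98G NC replicate 2 (0.123) or T98G NC replicate 3 (0.055). NFE2L1 itself changed by -0.08 and -0.03 (edgeR adjusted p = 0.743 and 0.951), at 97.9 ± 9.91 against 104 ± 5.20 CPM in T98G and 170.3 ± 6.55 against 174 ± 10.5 in U251. VCP, the segregase that delivers many substrates, changed by -0.19 and -0.20 (edgeR adjusted p = 0.406 and 0.396). In U251 none of the 10 was called by either tool, with 1 at an unadjusted p under 0.05 in edgeR. Of 6 ubiquitin and ubiquitin-activating enzyme genes, the ubiquitin genes UBB and RPS27A fell in T98G by 0.43 and 0.39 (edgeR adjusted p = 0.00211 and 0.0282), with a list median of -0.21 and 14.7% of all genes called lower, and the RPS27A call was lost with DESeq2 (0.0966), with no filter on counts (0.0712), with a filter of 1 CPM in 3 libraries (0.0523), without T98G PEPD-OE replicate 1 (0.186), T98G PEPD-OE replicate 2 (0.0583), T98G NC replicate 2 (0.122) or T98G NC replicate 3 (0.0759). UBB lies opposite AC093484.3 and RPS27A opposite CLHC1. In U251 none of the 6 was called by either tool, and none had an unadjusted p under 0.05.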

How the data were processed

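Polyadenylated RNA was sequenced with strand marking and paired ends in 12 libraries, per the labels' protocols. Named in the submitters' processing notes, without version or role, are HISAT2, Subread, featureCounts, fastp, FastQC and the build GRCh38. The values deposited by the authors are raw counts, 1 row per Ensembl gene; the annotation release is not given in the sources used here. Columns were matched to samples by library name.

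Counts were tested with edgeR 4.0.16 in R 4.3.3: filterByExpr with a minimum count of 10, TMM scaling, a robust quasi-likelihood fit with 1 mean per group over all 12 libraries (8 residual degrees of freedom), and two-sided p-values adjusted by Benjamini and Hochberg over 8773 genes. Calls needed an adjusted p under 0.05. CPM use the TMM-scaled library size. The SE is the size of the log2 change divided by the square root of F. Simulated T98G data with 8199 genes gave calls for 20.6% of genes changed 1.5-fold, 61.5% at 2-fold, 90.5% at 4-fold, and 3 of 8008 unchanged genes. Only 63, 65 and 63 genes were changed by these folds, a far smaller share than was called in the real data. Positions and exons are from GENCODE 29. DESeq2 1.42.0, other scalings, filters and gene sets, a replicate block and each library left out were the alternatives.

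The members, the lists and the tests were chosen with earlier results of these data known. Library values were given for the catalytic and activator genes, for members called with PEPD-OE or in the difference between lines, and, of those called only between the NC groups, for up to 4 per direction by size of change. Of the lists, genes called with PEPD-OE were named, at most 4 per list and line, the largest changes first.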

Additional observations from a re-analysis of the deposited data

Results flagged for a closer look

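The T98G change minus the U251 change passed edgeR's test (adjusted p under 0.05 over all genes) for 10 of the 37 proteasome genes tested, near the 27.7% of all genes that passed. The difference on the log2 scale was 0.76 for PSMA3, -0.92 for PSMB6 and -0.80 for PSMB7 in the core. Among the ATPases it was -0.69 for PSMC1, -1.01 for PSMC3, -0.96 for PSMC5 and -1.78 for PSMC6. It was -0.58 for PSMD2 and -1.26 for PSMD12 of the regulatory particle, and -1.20 for the activator PSME3. In PSMA3, PSMB6 and PSMD12 neither line alone was called.

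The same test passed for 9 genes of the lists around the proteasome: 2 of 8 assembly factors, 5 of 13 deubiquitinases, ligases and shuttles, and 2 of 10 genes of NFE2L1 processing and VCP, where 27.7% of all genes passed. The assembly chaperone PSMG4 differed by 1.70 and the ubiquitin receptor ADRM1 by -0.83. UCHL5, USP14 and UBQLN4 differed by -1.01, -0.95 and -1.28, and ZFAND5 by 1.45. ECPAS, a proteasome adaptor named here after its values were seen, differed by -1.46, with neither line alone called. FAF2 and SEL1L differed by -1.10 and -1.24. Under the alternatives (adjusted p in parentheses), the call was lost for FAF2 with DESeq2 (0.0747), without T98G PEPD-OE replicate 1 (0.0522) or U251 PEPD-OE replicate 1 (0.0733). It was lost for SEL1L with DESeq2 (0.118), with no filter on counts (0.0731), with a filter of 1 CPM in 3 libraries (0.0523), without T98G PEPD-OE replicate 1 (0.0639), T98G PEPD-OE replicate 3 (0.0826), T98G NC replicate 2 (0.113), U251 PEPD-OE replicate 1 (0.0608) or U251 NC replicate 2 (0.0568). For UBQLN4 it was lost with DESeq2 (0.0806), without T98G PEPD-OE replicate 1 (0.0794) or U251 PEPD-OE replicate 3 (0.0665), and for UCHL5 with DESeq2 (0.135), with no filter on counts (0.0989), with a filter of 1 CPM in 3 libraries (0.0714), without T98G PEPD-OE replicate 1 (0.069), T98G PEPD-OE replicate 2 (0.104), T98G NC replicate 1 (0.0783), U251 PEPD-OE replicate 3 (0.111), U251 NC replicate 1 (0.103) or U251 NC replicate 2 (0.0626). The USP14 call was lost with DESeq2 (0.107), with no filter on counts (0.0677), without T98G PEPD-OE replicate 1 (0.0672), T98G PEPD-OE replicate 2 (0.0518), T98G NC replicate 3 (0.115), U251 PEPD-OE replicate 2 (0.0756) or U251 NC replicate 1 (0.0529).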

How the results depend on the processing

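Every called value named for these genes kept its sign under all alternatives run, and 16 of 36 calls on proteasome genes stayed past the threshold in each (6 of 16 in T98G, 0 of 2 in U251, 4 of 10 for the difference between lines, 6 of 8 between NC groups). Genes with opposite overlap, among them PSMC1 and PSMC5, were absent from the alternative without such genes, so their calls were not tried there. In a fit of only the 4176 genes without known opposite overlap, 24 proteasome genes were tested, and fewer calls follow in part from fewer genes: 9 in T98G, 0 in U251 (7 at an unadjusted p under 0.05), 6 for the difference and 5 between NC groups, with 1140, 245, 917 and 1843 calls among all genes. DESeq2 gave 0 in U251 (7 at an unadjusted p under 0.05) and 6 for the difference, with 347 calls among all genes in U251 against 750 by edgeR. With each line fitted alone U251 gave 1 call, where calls among all genes ran from 245 to 792 over the alternatives. The cause of these shifts was not tested.

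Leaving out 1 library gave 10 to 18 calls on proteasome genes in T98G, 1 to 3 in U251, 8 to 11 for the difference and 7 to 10 between NC groups. Among all genes it gave 2350 to 3023, 440 to 742, 2116 to 2389 and 3810 to 4510. In U251 the low values were 440, 449 and 442, without PEPD-OE replicate 2, NC replicate 1 and NC replicate 3.

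The correlations of same-numbered libraries' deviations from their group means were -0.0417 to 0.0769. They cannot decide whether replicate numbers pair the libraries, because counting noise at this depth lowers such correlations. With the replicate number as a block, 17 proteasome genes were called in T98G, 2 in U251, 10 for the difference and 8 between NC groups. Over all alternatives, calls among all genes ran from 1140 to 3023, 245 to 792, 917 to 2446 and 1843 to 5006 in these comparisons.

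In simulated T98G data, where only 63 of 8199 genes were changed 1.5-fold, 20.6% of these were called. The adjustment of p-values is stricter when few genes change, and in the real T98G comparison 32.3% of all genes were called. The simulated share therefore does not carry over to these data. Genes that did not pass may still differ.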
